A study of Mus musculus with 6 samples.

Results

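Immediate early genes are the genes that a cell transcribes first after a growth factor, stress or another stimulus, from factors already present and without new protein synthesis. Most of their transcripts are short-lived, so their level follows recent signalling. The 9 genes described here were chosen by name, with earlier results of these arrays known, and are Fos, Fosb, Jun, Junb, Egr1, Dusp1, Ier3, Myc and Klf6. All 9 were on the array, on 18 of its 33026 named features and among 22485 named genes. Fos had 10 features and each of the others had 1. The log2 signals of the mimic and scramble arrays were the values in view when the genes were picked, so the comparison of these groups is given for them as a description, with no test. Of the 9 genes 8 lay above the filter on dim features and Ier3 did not.

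The samples were whole blastocysts of the B6C3F1 hybrid mouse strain on day 5. Embryos were flushed from the oviduct on day 2 of pregnancy, from hormone-primed females of 6 to 8 weeks, and then kept for 72 hours in culture medium containing a synthetic RNA at 400 nM. This was a mimic of the microRNA miR-30d in 3 samples (mimic) and a scrambled control RNA with the dye Alexa 488 in the other 3 (scramble). Each condition used 30 embryos, each sample was hybridised from 50 ng of total RNA to its own 1-colour array, and the study concerns microRNAs that reach the embryo from the endometrium. The dye is described for the control alone and untreated embryos are not analysed here, so the miR-30d sequence and the missing dye cannot be told apart. Both groups received a synthetic RNA, so the comparison leaves out what any such RNA does. Each array reads pooled whole embryos, in which fewer cells of a type and less RNA per cell cannot be told apart.

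In the extracellular signal-regulated kinase (ERK) pathway, which fibroblast growth factor activates in the blastocyst, the kinase phosphorylates factors such as Elk1 that act with serum response factor at the promoters of Fos and Egr1. Cyclic AMP and stress kinases act on many of the same promoters through Creb1 and Jun. Fos and Jun proteins then pair as the transcription factor AP-1, while Dusp1 and related phosphatases switch the kinases off again.

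Both replicate 1 arrays stood apart from the other 4. They held 2108 (scramble) and 2683 (mimic) distinct values, against 4410 to 5979 on the others, and correlated with the other arrays over all features at 0.947 or less, while every other array had a partner at 0.976 or more. Over the 279 genes with 10 features, the median SD among the features of a gene on 1 array was 0.424 and 0.303 on the replicate 1 arrays of scramble and mimic and 0.167 to 0.201 on the others. Results are therefore also given without both replicate 1 arrays. The labelled tissue showed in its markers, with all 7 trophectoderm markers at or above percentile 95.3 of named features by mean signal and all 5 primitive endoderm markers at or above percentile 68.4. The median log2 difference, mimic minus scramble, was -0.09 for the trophectoderm markers (5 of 7 lower, Cdx2 at -0.62) and -0.11 without the replicate 1 arrays. It was 0.34 for the primitive endoderm markers (4 of 5 higher) and 0.25 for those of the inner cell mass (4 of 5 higher), which were 0.12 and 0.11 without those arrays, and the part of the lineages in the results below was not tested. Among the trophectoderm markers counted as lower, Krt18 (-0.05) read the array maximum on replicates 2 and 3 of both groups. Its difference on those arrays is a difference of array maxima. The genes listed as inner cell mass markers ran from percentile 32.6 (Klf17) to 87.2 (Nanog). Klf17 is among the 4 that were higher, with a scramble mean of 7.03, under the filter level of 7.16, and a mimic mean of 7.42. Whether Klf17 marks these cells in the mouse was not tested, so the inner cell mass count and median rest partly on a doubtful marker. Of 21 markers of cumulus, oviduct, sperm, blood, endothelial and stromal cells, 20 were on the array and 10 of these lay under the filter. The remaining 10 ran up to percentile 50.6 (Pecam1), except the receptor gene Kdr at 88.5, which was brightest on the replicate 1 arrays.

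Over the 8 genes above the filter the median log2 difference, mimic minus scramble, was 0.43, and over all 9 genes it was 0.34, beside 0.02 over the 17399 genes tested. Of the 8 genes 7 had a higher mean with the mimic and 1, Myc, a lower one, where 53.2% of all genes were higher. At an adjusted p of 0.05 the limma fit called 0% of the 17399 genes and so none of the 8, and it left 552 genes with p under 0.05 before adjustment. A fit with the replicate number as a block called 1 of 17399 (0.00575%), and this gene was not among the 8. Every mimic array lay above every scramble array in 3 of the 8 genes, Fos, Jun and Dusp1, beside 5.58% of all genes, and below in 0 of the 8, beside 4.12%. For Fos this holds on its brightest feature, while the means of its 10 features overlapped. Without the replicate 1 arrays the mimic arrays lay above in 5 of the 8, with Egr1 and Klf6 added, beside 20.5% of all genes, and below in 0 of the 8, beside 15.2%. The contrast was in view when the genes were picked, so nothing is read from these counts. The titles call the samples biological replicates, and nothing in the labels says whether they came from separate matings or culture days, so the fit measures the spread between these samples.

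**Figure D1:**
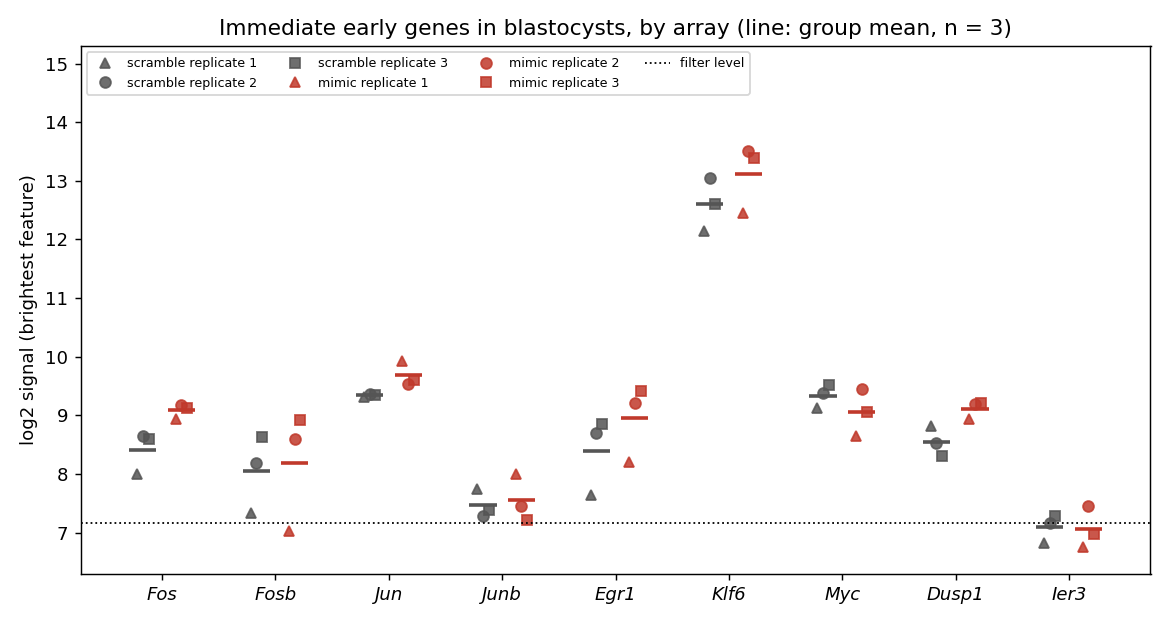
Log2 signal of the brightest feature of each immediate early gene on all 6 arrays, with scramble in grey and mimic in red, a symbol for each replicate number, a line at each group mean (n = 3) and a dotted line at the filter level of 7.16. The mimic symbols lie above all scramble symbols in Fos, Jun and Dusp1, and the replicate 1 triangles are the lowest of all 6 symbols in Fosb, Egr1 and Klf6.

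The stretch before the transcription start was in the RefSeq promoter table (GRCm38.p6) for 7 of the 9 genes. Those of Fos, Dusp1, Jun and Klf6 are shown. They were picked after their values were seen, as genes with higher mimic arrays at every replicate number and a match to the letters searched below. The choice therefore says nothing of a link between such letters and the difference. Fosb and Junb also held a match and are not shown. The 250 bases before the start were searched on both strands for the cyclic AMP response element TGACGTCA, its core TGACG (which lies within the full element), the AP-1 site TGANTCA, the variant TGACATCA known from the Jun promoter, and the CArG box bound by serum response factor. Capitals mark every match to these letters, and each stretch runs 5′ to 3′ on the strand of the gene.
Fos, chr12:85473640-85473889, plus strand: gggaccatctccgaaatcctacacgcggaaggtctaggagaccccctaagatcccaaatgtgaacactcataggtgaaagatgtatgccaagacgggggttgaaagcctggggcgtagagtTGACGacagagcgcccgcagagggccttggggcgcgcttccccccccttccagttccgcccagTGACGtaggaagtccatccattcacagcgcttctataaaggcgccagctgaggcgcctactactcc
Dusp1, chr17:26508473-26508722, minus strand: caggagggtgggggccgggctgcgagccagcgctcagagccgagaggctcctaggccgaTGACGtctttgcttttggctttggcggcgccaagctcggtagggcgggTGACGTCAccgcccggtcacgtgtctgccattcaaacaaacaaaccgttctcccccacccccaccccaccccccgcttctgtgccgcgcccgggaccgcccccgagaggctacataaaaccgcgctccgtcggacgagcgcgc
Jun, chr4:95052223-95052472, minus strand: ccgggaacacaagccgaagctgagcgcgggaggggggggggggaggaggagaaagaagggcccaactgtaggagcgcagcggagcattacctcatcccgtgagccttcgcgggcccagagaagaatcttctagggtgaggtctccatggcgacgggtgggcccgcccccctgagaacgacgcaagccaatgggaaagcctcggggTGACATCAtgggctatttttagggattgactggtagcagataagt
Klf6, chr13:5861239-5861488, plus strand: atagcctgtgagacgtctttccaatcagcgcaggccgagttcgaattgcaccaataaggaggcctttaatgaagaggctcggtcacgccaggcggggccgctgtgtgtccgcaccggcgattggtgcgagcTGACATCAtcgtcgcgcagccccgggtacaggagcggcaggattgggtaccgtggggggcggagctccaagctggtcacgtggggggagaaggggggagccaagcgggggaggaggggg

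The core TGACG was in 4 of the 7 stretches (Fos, Fosb, Junb and Dusp1) and in 17.8% of the 32851 promoters in the table. Fos held it at 129 to 125 and at 66 to 62 bases before the start. Dusp1 held the full TGACGTCA at 143 to 136 bases before the start, and 1.55% of all promoters have this element. The variant TGACATCA, added after the sequences had been seen, was in Jun at 45 to 38 bases and in Klf6 at 119 to 112 bases before the start, and in 2.93% of all promoters. The letters of TGANTCA (6.75% of all promoters) and of the CArG box (1.47%) were in 0 of the 7 stretches of this length. Egr1 and Myc were not among the 7, and bases further before the start were not searched. The count therefore does not show that any of the 9 genes lacks these sites. Other motifs were searched in the same stretches and are not marked. GGGCGG was in 6 of 7 (32.7% of all promoters) and CACGTG in 2 of 7 (6.02%). TATAAA was in 1 of 7 (12.4%) and CCGGAA in 0 of 7 (12%). These matches describe letters only and say nothing of binding in these embryos.

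Fos, the founding partner of Jun in AP-1, was read by 10 features, whose mean on each array was 7.43, 8.58 and 8.57 with scramble and 7.96, 9.22 and 9.22 with the mimic (replicates 1 to 3). Both replicate 1 arrays were low, so the groups overlapped, while mimic replicates 2 and 3 lay above all 3 scramble arrays. The group means were 8.19 ± 0.66 and 8.80 ± 0.73 (SD, n = 3 each), so that the mimic was higher by 0.61 on the log2 scale or 1.52-fold, less than either SD. Between same-numbered arrays the difference was 0.53, 0.64 and 0.65, close to even although the replicate 1 arrays were more than 1 log2 unit lower.

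The brightest feature stands for a gene in the fit, and for Fos it read 8.00, 8.65 and 8.59 with scramble and 8.94, 9.18 and 9.13 with the mimic. On this feature the groups did not overlap and the log2 difference was 0.67 (SE 0.26). It was the second brightest of the 10 on scramble replicate 1 and the brightest on mimic replicate 1. Single features gave log2 differences from -0.12 to 0.97, with 9 of 10 higher, and the groups did not overlap on 2 of them. Without the replicate 1 arrays the 10 features gave 0.52 to 0.73, and on all 10 both mimic arrays lay above both scramble arrays. Within scramble replicate 1 the 10 features spread from 6.88 to 9.20 (SD 0.71), and within mimic replicate 1 from 6.90 to 8.94 (SD 0.66), against an SD of 0.10 to 0.20 on the other arrays. Feature sequences were not used here, so whether the 10 are copies of the same probe is not known.

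**Figure D2:**
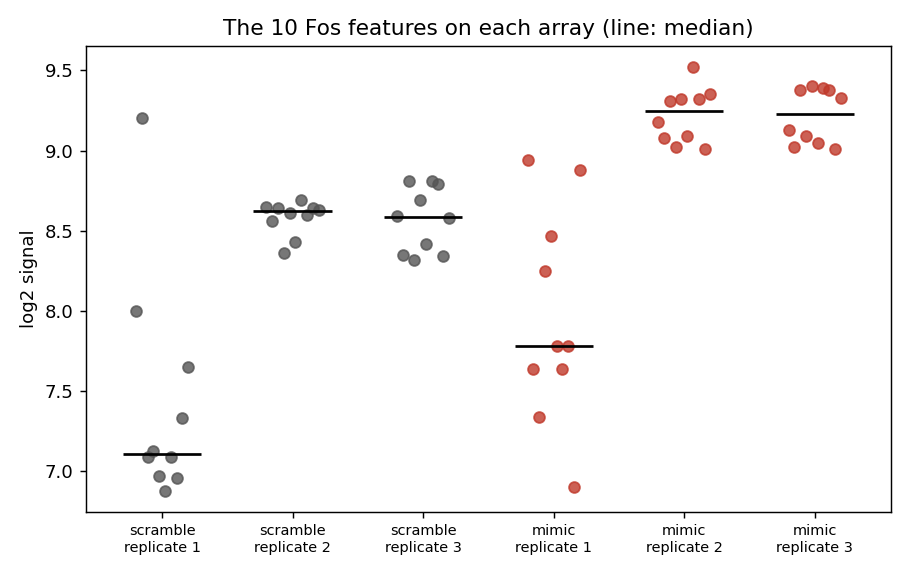
Log2 signal of the 10 Fos features on each array, with scramble in grey, mimic in red and a line at the median of each array. The features lie close together on the replicate 2 and 3 arrays, with medians of 8.62 and 8.59 in scramble and 9.24 and 9.23 in mimic, and scatter widely on both replicate 1 arrays, with medians of 7.11 and 7.78.

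Fosb, a close relative of Fos that also pairs with Jun proteins, read 7.33, 8.19 and 8.63 with scramble and 7.03, 8.60 and 8.92 with the mimic. Both replicate 1 arrays were the lowest of the 6, and the groups overlapped. The log2 difference of 0.14 (SE 0.55) was far smaller than the SDs of 0.66 and 1.01 (n = 3 each). Without the replicate 1 arrays it was 0.35, with overlap.

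Jun, the partner that can also form AP-1 with itself, had the tightest scramble values of the 9 genes, at 9.31, 9.37 and 9.35, and read 9.92, 9.54 and 9.60 with the mimic. Every mimic array lay above every scramble array. The log2 difference was 0.34 (SE 0.17), or 1.27-fold, and exceeded the SDs of 0.03 and 0.20 (n = 3 each). It was 0.21 without the replicate 1 arrays, since mimic replicate 1 was the highest of the 6.

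Junb, an AP-1 subunit that the mouse placenta needs, was at percentile 52.8 of the named features and read 7.75, 7.28 and 7.38 with scramble and 8.00, 7.45 and 7.21 with the mimic. The groups overlapped, and here the replicate 1 arrays were the highest of each group. The log2 difference of 0.09 (SE 0.29) was smaller than the SDs of 0.25 and 0.41 (n = 3 each), and it was 0.00 without the replicate 1 arrays. Across the 4 AP-1 subunits the differences thus ran from 0.09 in Junb to 0.67 on the brightest feature of Fos.

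Egr1, a zinc-finger transcription factor induced through ERK, read 7.65, 8.70 and 8.85 with scramble and 8.21, 9.21 and 9.42 with the mimic. Each mimic array was above the scramble array of its number, by 0.56, 0.51 and 0.57, but the groups overlapped because both replicate 1 arrays were the lowest. The log2 difference of 0.55 (SE 0.42, or SE 0.19 with the replicate block) was smaller than the SDs of 0.65 and 0.64 (n = 3 each). Leaving out scramble replicate 1 gave 0.17, leaving out mimic replicate 1 gave 0.91, and with both left out it was 0.54 and the groups did not overlap.

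Klf6, a Krüppel-like zinc-finger factor, was at percentile 97.5 of the named features and read 12.15, 13.04 and 12.61 with scramble and 12.45, 13.50 and 13.39 with the mimic. The replicate 1 arrays were again the lowest and the groups overlapped. Same-numbered arrays differed by 0.29, 0.47 and 0.79, and the log2 difference was 0.52 (SE 0.31, or SE 0.11 with the replicate block), or 1.43-fold. It lay between the SDs of 0.44 and 0.58 (n = 3 each), and was 0.63 with no overlap without the replicate 1 arrays.

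Myc, the growth-promoting factor that pairs with Max, was the only gene of the 8 with a lower mimic mean. It read 9.12, 9.38 and 9.51 with scramble and 8.64, 9.45 and 9.06 with the mimic, and the groups overlapped. The log2 difference of -0.29 (SE 0.25) compares with SDs of 0.20 and 0.40 (n = 3 each). It went from -0.48 without mimic replicate 2 to -0.08 without mimic replicate 1, and same-numbered arrays differed by -0.47, 0.07 and -0.45.

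Dusp1, the phosphatase that inactivates stress kinases and ERK, read 8.82, 8.52 and 8.31 with scramble and 8.94, 9.20 and 9.21 with the mimic. Every mimic array was above every scramble array, and scramble replicate 1 came closest to the mimic arrays. The log2 difference was 0.57 (SE 0.24), or 1.48-fold, and exceeded the SDs of 0.26 and 0.16 (n = 3 each). Unlike in Egr1, same-numbered arrays differed unevenly, by 0.11, 0.68 and 0.90, and without the replicate 1 arrays the difference was 0.79, or 1.73-fold.

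Ier3, an early response gene with a role in cell survival, lay under the filter at 6.82, 7.17 and 7.28 with scramble and 6.75, 7.45 and 6.97 with the mimic. The values overlapped, and the log2 difference was -0.03. Its mean of 7.07 was under the median of 7.20 of the features without a gene name, and no detection limit is known for it. The filter level was 7.16, and Junb was the dimmest of the 8 genes above it, at a mean of 7.51.

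**Figure D3:**
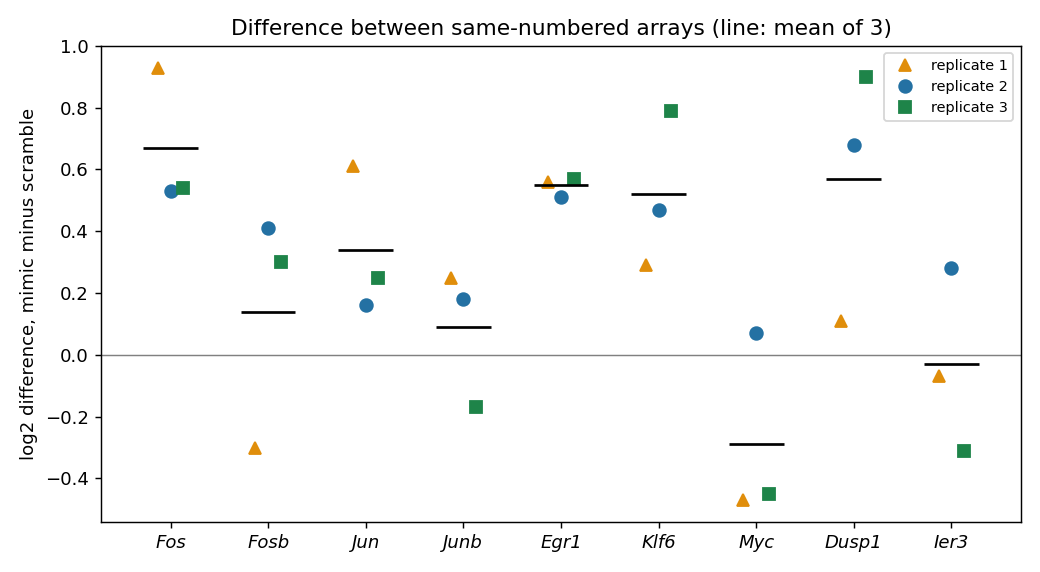
Log2 difference, mimic minus scramble, between arrays of the same replicate number for each immediate early gene on its brightest feature, with a line at the mean of the 3. All 3 differences are above 0 in Fos, Jun, Egr1, Klf6 and Dusp1, tightly grouped in Egr1 (0.51 to 0.57) and spread in Dusp1 (0.11 to 0.90), while those of Fosb, Junb, Myc and Ier3 lie on both sides of 0.

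All 3 same-numbered differences were above 0 in 5 of the 8 genes, Fos, Jun, Egr1, Klf6 and Dusp1, and in 19.1% of all genes. With the replicate block the SE was 0.20 for Fos, 0.26 for Fosb, 0.15 for Jun and 0.22 for Junb. It was 0.19 for Egr1, 0.11 for Klf6, 0.18 for Myc and 0.22 for Dusp1, with a median of 0.204 over all genes tested. Arrays of the same number deviated together from their group means, so the variation between replicate numbers was itself tested. This is another measure than the difference between mimic and scramble, taken on the same 6 arrays whose results were known when the genes were picked. The limma F-test for the replicate number, with treatment in the model, called 150 of 17399 genes at an adjusted p of 0.05 (0.862%) and 0 of the 8 immediate early genes, with 3383 genes under 0.05 before adjustment. The smallest adjusted p-values of this limma test were 0.0575 for Klf6, 0.0941 for Egr1 and 0.105 for Fosb. Klf6 passed when all probes or the brighter 50% of probes were tested. These 3 genes were also those in which both replicate 1 arrays lay below the other 4 arrays, 3 of 8 beside 23.2% of all genes, and 7 of the 10 features of Fos did so. The part of array quality in this variation was not tested.

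The SD within groups placed Fosb at percentile 97.5 of all genes tested, Egr1 at 92.1 and Klf6 at 83.0. Dusp1 and Jun were among the steadier genes, at percentiles 30.4 and 13.5. Junb was highest on the replicate 1 arrays, where Fosb, Egr1 and Klf6 were lowest. Among 17391 other genes, Glce (Pearson r = 0.999), Spag1 (0.994), Plpbp (0.994), Prr15l (0.992) and Dnajc27 (0.992) had the profiles most like the mean of the standardised profiles of the 9 genes over the 6 arrays. The profiles most like that of the brightest Fos feature were those of Acsl4 (0.994), Zfas1 (0.994) and Blzf1 (0.992). In all, 379 genes reached 0.9 or more with the mean profile and 507 with Fos, and these arrays share the replicate 1 pattern, so the likeness is a description only.

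Among 13 relatives of the AP-1 and EGR factors 12 were above the filter (Egr4 was not), of which 8 were higher with the mimic and 4 lower. Their median log2 difference was 0.23, which was 0.28 without the replicate 1 arrays, 0.12 without mimic replicate 2 and 0.10 with the mean of all features of a gene. Jdp2, a repressor that binds AP-1 sites, read 10.04, 10.75 and 10.16 with scramble and 11.05, 10.93 and 10.80 with the mimic, so that the groups differed by 0.61 (SE 0.20) without overlap. Jund, the constitutively expressed Jun protein, read 12.70, 12.40 and 12.50 and then 12.38, 12.29 and 12.22, and differed by -0.24 (SE 0.13), also without overlap. Batf had 0.59 on its brightest feature, but mimic replicate 1 alone was high (8.61) and without the replicate 1 arrays it had -0.03. On that feature its scramble mean was 6.99, under the filter level of 7.16, and it was kept through its mimic mean of 7.58. Fosl1, also counted as higher, had a scramble mean of 7.13 and a mimic mean of 7.27. The count of 8 therefore rests partly on genes kept through the mimic arrays. Fosl2 had -0.12, and 0.41 without the replicate 1 arrays. None of the 12 passed in the limma fit.

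The 26 other immediate early genes were close to even, with 15 of the 25 above the filter higher, 10 lower, a median of 0.06 and 0 passing. Nr4a3, an orphan nuclear receptor gene, differed by 0.47 (SE 0.23) on the feature used, while its 10 features gave -0.35 to 0.47. On that feature its scramble mean was 7.01, under the filter level of 7.16, and it was kept through its mimic mean of 7.48. Ptgs2, also counted as higher, was kept in the same way, with a scramble mean of 7.14 and a mimic mean of 7.43. Ccn1, a matricellular protein gene, had 0.44 (SE 0.21). Trib1, a pseudokinase gene, had -0.84 (SE 0.32), which was -0.32 without the replicate 1 arrays, and Hbegf, an epidermal growth factor family ligand with a role in implantation, had -0.41 (SE 0.24). Npas4 lay under the filter. The log2 differences of this list ran from -0.84 to 0.47, those of the 8 genes above from -0.29 to 0.67.

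Of 13 genes listed as ERK feedback, which limit ERK signalling or are induced through it, 10 were above the filter. Dusp2, Dusp5 and Spred3 were not. Of the 10 genes 7 were on the higher and 3 on the lower side. Their median log2 difference was 0.17, which was 0.05 without mimic replicate 2 and 0.08 with the mean of all features, and 0 passed. Phlda1, which is induced through ERK, read 9.52, 9.88 and 9.85 with scramble and 10.30, 10.51 and 10.33 with the mimic, and its log2 difference of 0.63 (SE 0.16) came without overlap. Dusp6, the ERK-specific phosphatase, read 11.58, 11.63 and 11.88 and then 12.04, 12.07 and 12.25, a log2 difference of 0.42 (SE 0.13), also without overlap. Dusp6 is named after its values were seen. Spred2 had 0.43, which was 0.06 without the replicate 1 arrays, and the kinase phosphatase genes Dusp4 and Dusp7 had -0.33 and -0.15, which were -0.05 and 0.04 without them.

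The kinases and factors that induce immediate early genes stood at a median log2 difference of -0.01, with 8 of 17 higher, 9 lower and 0 passing. The kinase gene Braf had 0.48 (SE 0.33), Creb1 0.30 (SE 0.25), Stat3 -0.23 (SE 0.18) and Srf, which encodes serum response factor, -0.21 (SE 0.18). Srf read 10.00 and 9.36 on the replicate 1 arrays of scramble and mimic, and without them its difference was 0.00. The gene of its coactivator Mrtfa, named after its values were seen, had -0.21 (SE 0.19). Other features of Creb1 and Braf went as low as -0.40 and -0.08. Elk1, counted as lower at -0.03, read the array maximum on replicates 2 and 3 of both groups.

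The partners of Myc had a median of 0.03, with 4 of 7 higher, and Mxi1 lay under the filter. Mga and Mxd1, both of which compete with Myc for Max, had log2 differences of 0.49 (SE 0.30) and 0.49 (SE 0.29) without overlap, which were 0.24 and 0.22 without the replicate 1 arrays. Max had -0.16 and Mycl -0.51, where the latter rested on a bright scramble replicate 1 (9.31) and was 0.10 without the replicate 1 arrays. Among 13 Myc targets the median was 0.04, and 9 had a higher mimic mean. The nucleolar gene Npm1 had 0.52 (SE 0.34, or SE 0.09 with the replicate block) and same-numbered differences of 0.54, 0.48 and 0.53. These are values of its brightest feature, and its 5 features gave -0.11 to 0.58. Ldha had 0.44 (SE 0.32, or SE 0.11 with the block) and same-numbered differences of 0.75, 0.29 and 0.29. The ribosome assembly gene Nop56 had -0.27 (SE 0.13, or SE 0.08 with the block), and every mimic array lay below every scramble array. Fbl, also a ribosome assembly gene, had -0.19 (SE 0.14, or SE 0.09 with the block), with overlap. The Krüppel-like family had a median of 0.08 and 6 of 9 genes higher, Klf17 at 0.40, Klf10 at 0.38, Klf5 at -0.12 and Klf13 at -0.35. The groups did not overlap in Klf13, which had -0.18 without the replicate 1 arrays. Klf17 had a scramble mean of 7.03, under the filter level of 7.16. Its difference was 0.11 without the replicate 1 arrays and 0.10 on its other feature. None of these 3 lists had a gene that passed.

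Of 13 reported targets of AP-1 and EGR factors 12 were above the filter (Mmp3 was not), with 8 on the higher side. The median log2 difference was 0.21, which became 0.03 without the replicate 1 arrays. The urokinase gene Plau had 0.59 (SE 0.20) and its receptor gene Plaur 0.81 (SE 0.41), both without overlap. Without the replicate 1 arrays they had 0.73 and 0.29. Plau had a scramble mean of 6.96, under the filter level of 7.16, and was kept through its mimic mean of 7.55. Nothing is read from its difference. Mmp9, also on the higher side, was kept in the same way as Plau, with a scramble mean of 7.15 and a mimic mean of 7.42. Mmp13 had -0.46 (SE 0.41) and -1.05 without the replicate 1 arrays. Tgfb1 had -1.70 (SE 0.90) on its brightest feature, without overlap, while its 10 features gave -1.70 to 0.10. The size of the difference on the brightest feature rested on a single reading of 11.17 on scramble replicate 1, and it was -0.35 without the replicate 1 arrays. The mimic mean of Tgfb1 was 6.96, under the filter level of 7.16. Heat shock genes, which respond to handling and protein damage, had 2 of 4 higher and a median of -0.09, with Hsph1 at 0.04, Dnajb1 at 0.20, Hspb1 at -0.22 and Hspa8 at -0.27. Hspa1a lay under the filter and Hspb1 and Hspa8 were among the brightest features, at percentiles 97.9 and 99.0. No gene of either list passed in the limma fit.

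**Figure D4:**
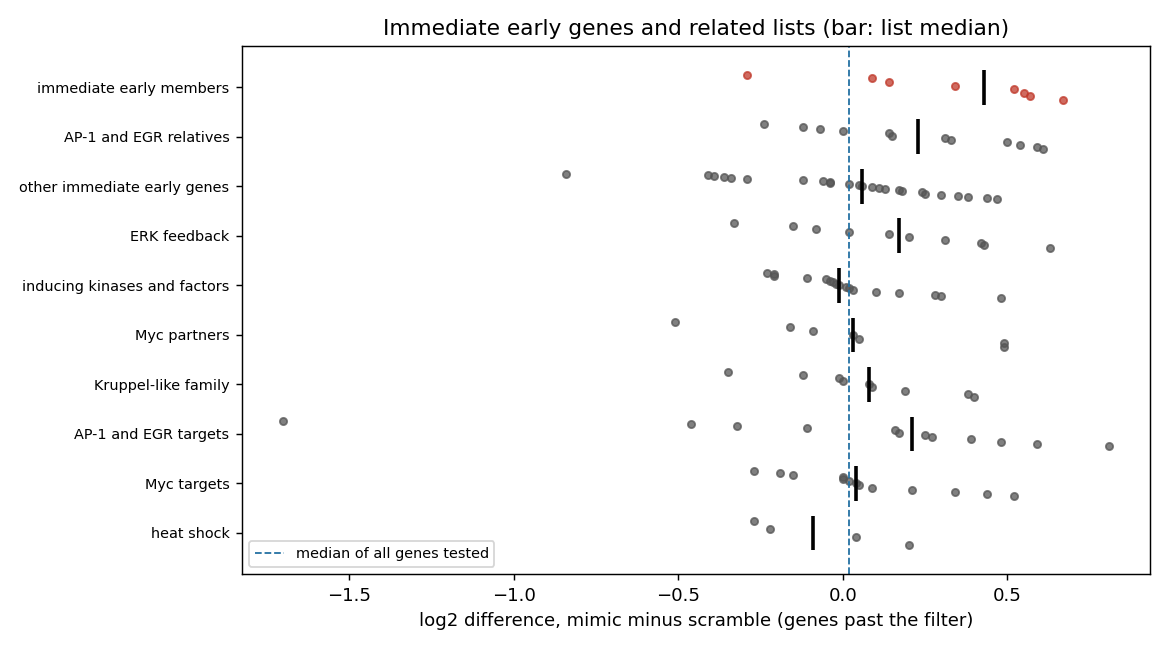
Log2 difference, mimic minus scramble, of each gene above the filter, for the immediate early genes (red) and 9 related lists (grey), with a bar at each list's median and a dashed line at the median of all genes tested (0.02). The medians run from 0.43 for the immediate early genes and 0.23 for the AP-1 and EGR relatives to -0.09 for heat shock. The point at -1.70 is the brightest feature of Tgfb1.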

How the data were processed

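Per the labels, RNA was column-extracted, amplified with T7 RNA polymerase, labelled with Cy3 and hybridised, 1 array per sample. The deposited values are log2 signals of 45220 features on each of 6 arrays. Scanning, background correction and normalization were steps not given in the sources used here. Medians per array lay at 7.367 to 7.376, so a change shared by most genes cannot be seen. Features were named from the platform annotation (33026 with 1 symbol, 0 with several, 12194 unnamed and left out) and updated by Entrez identifier through RefSeq (GRCm38.p6, 98.2% matched).

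Named features in the dimmest 25% (by mean of the 6 arrays) were dropped, leaving 24769, and the brightest feature stood for a gene. The groups were fitted in R 4.3.3 with limma 3.58.1 (lmFit, eBayes with a trend, two-sided, Benjamini-Hochberg over 17399 genes, threshold 0.05), checked on simulated data. The median SE was 0.249, and the number of arrays limits the precision. The replicate number was tested by the moderated F-test. Alternatives were the replicate block, left-out arrays, other filters, probe means, rescaling, no trend and all probes. Deviations of same-numbered arrays correlated at 0.328, 0.349 and 0.204, over the limit of 0.1 used here to read a pairing from the data and not from the labels. Replicates 2 and 3 of opposite groups also passed that limit, at 0.185 and 0.124, so it does not single out same-numbered arrays. Without the replicate 1 arrays the replicate number term called 0 genes, so a pairing of replicates 2 and 3 is not shown.

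The members and lists were chosen with earlier results of these data known. Genes named are all 9 members, the 2 highest and 2 lowest log2 differences of each related list, and the 5 and 3 most similar profiles. Figures were drawn with matplotlib 3.10.9.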

Additional observations from a re-analysis of the deposited data

How the results depend on the processing

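In the comparison of mimic with scramble, limma called 0 genes in each setting tried except the replicate block, which called 1. No immediate early gene was called under that block. Dusp1 had a difference of 0.79 without both replicate 1 arrays, a move larger than its SD within groups. The replicate block and the filters cannot move a gene's difference by their construction. When single arrays were left out in turn the differences ran from 0.46 to 0.78 for Fos, 0.22 to 0.41 for Jun, 0.45 to 0.70 for Dusp1, 0.17 to 0.91 for Egr1, 0.29 to 0.85 for Klf6 and -0.48 to -0.08 for Myc, while Fosb (-0.23 to 0.72), Junb (-0.14 to 0.26) and Ier3 (-0.23 to 0.12) went through 0. Their median ranged between 0.23 and 0.66 in the same way, and was 0.43 without Ier3, an alternative chosen after seeing the data. The count of genes called for the replicate number was 275 without a filter and 296 among the brighter 50% of probes. It was 0 without the variance trend, and 0 without both replicate 1 arrays, also chosen after seeing the data. The cause was not tested. With single arrays left out, list medians ranged over 0.12 to 0.27 for the AP-1 and EGR relatives, 0.02 to 0.14 for the other immediate early genes, 0.05 to 0.22 for ERK feedback, -0.02 to 0.08 for the inducing factors, -0.04 to 0.12 for the Myc partners, -0.06 to 0.16 for the Myc targets, 0.01 to 0.20 for the Krüppel-like family, 0.04 to 0.40 for the AP-1 and EGR targets and -0.13 to 0.07 for heat shock. With no detection flags or background readings used here, Ier3 and other genes under the filter have no known detection limit.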
